A study of Homo sapiens with 12 samples.

Results

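The transcription factor p53 responds to DNA damage and other stress by switching on genes that stop the cell cycle, repair DNA, adjust metabolism or start cell death, and it also switches on its own inhibitors. In cancers caused by high-risk human papillomavirus (HPV) the viral protein E6 recruits a cellular ubiquitin ligase to p53, which marks p53 for degradation, so these tumors usually keep the p53 gene intact while the protein is kept low. The genes described here are 33 known p53 target genes, chosen by name out of 20738 genes in a table of RNA-seq counts, in cells treated with JQ1. JQ1 is a small molecule that occupies the bromodomains of BET proteins and so detaches them from acetylated histones.

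The samples were 12 total RNA libraries from 2 established HPV-positive lines of squamous carcinoma of the head and neck, UPCI-SCC-090 and UM-SCC-47. Cells of each line were cultured for 72 h with 500 nM JQ1 or with 0.1% dimethyl sulfoxide (DMSO), the solvent control. The 4 groups were UPCI-SCC-090 with JQ1, UPCI-SCC-090 with DMSO, UM-SCC-47 with JQ1 and UM-SCC-47 with DMSO, each with 3 libraries. The labels do not say whether the 3 repeats of a group were separate cultures, so the p-values measure only the spread between these libraries, which may be technical. Each line stands for a single tumor, and HPV is present in all 4 groups, so nothing here sets HPV-positive cells against HPV-negative ones.

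The libraries held between 20349275 and 30788657 estimated counts. All 33 target genes were in the table, and 32 of them passed the filter on low counts in at least 1 comparison. The exception was EDA2R, which encodes a receptor of the tumor necrosis factor receptor family and had no more than 1 count in any library. The 8 genes listed as squamous epithelial markers all had counts in every group. In UPCI-SCC-090 their summed level was 3140 to 4560 CPM (counts scaled to the size of the library) with JQ1, against 2310 to 3270 CPM with DMSO. In UM-SCC-47 it was 37800 to 56000 CPM with JQ1, against 8900 to 10500 CPM with DMSO. A few genes carried most of the sum, so it does not by itself show that the cells were squamous. In UM-SCC-47 most of this sum was KRT8 and KRT18, with means of 27800 and 15500 CPM with JQ1, against 5530 and 2230 CPM with DMSO. KRT5 and CDH1 were lower with JQ1 there, at 172 against 607 CPM and 675 against 741 CPM. KRT17 and KRT14 were higher, at 1830 against 360 CPM and 251 against 115 CPM. EPCAM (130 against 105 CPM) and DSG3 (55.1 against 48.2 CPM) were slightly higher. In UPCI-SCC-090 KRT8 and CDH1 gave most of the sum, at 1410 and 1710 CPM with JQ1, against 1380 and 908 CPM with DMSO. DSG3 (65.5 against 6.68 CPM) and EPCAM (265 against 198 CPM) were also higher with JQ1. KRT18 (201 against 253 CPM) and KRT17 (84.3 against 86.1 CPM) were lower. KRT5 had 8.84 CPM with JQ1, against 8 CPM with DMSO. KRT14, a keratin of basal squamous cells, was near absent from UPCI-SCC-090, at a mean of 0.872 CPM with JQ1, against 1.24 CPM with DMSO. The summed fibroblast, immune and endothelial markers stayed at or under 29.2, 41.3 and 8.09 CPM in every library. The part of these markers in the results was not tested.

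p53 binds DNA as a tetramer at a consensus element of 2 adjoining units of 10 bases, each with 3 purines, a core that begins with C and ends with G, and 3 pyrimidines. To show what such an element looks like in these genes, windows of 300 bases around annotated start sites, 250 before and 50 after the first transcribed base, were taken from RefSeq on GRCh38.p14 and scanned for the p53 consensus. The C and the G of each core were required, up to 3 mismatches at the other 16 positions were allowed, and the units could be apart by 0 or 1 base. The consensus reads the same on both strands. Windows were found for 28 of the 33 genes, and 8 of these 28 genes (28.6%) held a match, against 795 of all 27305 genes with a window (2.91%). The 8 elements are printed 5′ to 3′ on the strand of the gene, with the core of each unit in capitals.
DDB2: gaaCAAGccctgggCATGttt
MDM2: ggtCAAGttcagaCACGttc
AEN: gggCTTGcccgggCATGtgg
FAS: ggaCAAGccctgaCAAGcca
GLS2: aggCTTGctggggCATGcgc
SESN1: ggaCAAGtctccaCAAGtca
FDXR: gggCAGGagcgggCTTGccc
GDF15: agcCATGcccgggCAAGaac

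The DDB2 element (chr11:47214979-47214999, plus strand, GRCh38.p14) had 0 mismatches and a spacer of 1 base, and it began at position 6 of the transcript. The MDM2 element (chr12:68808923-68808942, plus strand) had 2 mismatches and lay before the second of the gene's start regions, with its first base at position -94. The AEN, FAS and GLS2 elements also had 2 mismatches, and those of SESN1, FDXR and GDF15 had 3. A related arrangement, a pair of CATG cores with 6 bases between them, was searched on its own and was found in TRIAP1 among the 28 genes and in 129 of all 27305 genes (0.472%).
TRIAP1: aggCATGcacggaCATGaag

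The windows of the strongest match and of the best known feedback gene are given in full to show how close the elements lie to the start site, with the cores in capitals again. The DDB2 window is chr11:47214724-47215023 and the MDM2 window is chr12:68808767-68809066, both on the plus strand of GRCh38.p14.
DDB2: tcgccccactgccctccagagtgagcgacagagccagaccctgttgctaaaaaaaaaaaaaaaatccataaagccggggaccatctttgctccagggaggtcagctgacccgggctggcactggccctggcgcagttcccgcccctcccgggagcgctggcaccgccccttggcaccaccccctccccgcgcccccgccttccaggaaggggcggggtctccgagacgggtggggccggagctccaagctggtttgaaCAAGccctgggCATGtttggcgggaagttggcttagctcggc
MDM2: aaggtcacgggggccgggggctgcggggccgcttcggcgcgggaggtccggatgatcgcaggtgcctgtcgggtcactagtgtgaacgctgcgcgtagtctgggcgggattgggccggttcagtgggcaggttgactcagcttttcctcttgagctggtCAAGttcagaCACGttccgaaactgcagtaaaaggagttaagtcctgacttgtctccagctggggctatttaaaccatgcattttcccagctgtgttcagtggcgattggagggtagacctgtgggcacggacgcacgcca

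The CDKN1A window held no match, and neither did those of 19 other genes. These are matches of letters in short windows, and they are set beside the expression values without being read as sites of binding. Of the 8 genes with a match, 5 were called higher with JQ1, 2 of them in both lines and 3 in UM-SCC-47 but not in UPCI-SCC-090, and 3 passed the test in neither line. Of the 20 genes with a window and no match, 9 were called higher in both lines, 6 in UM-SCC-47 but not in UPCI-SCC-090 and 1 in UPCI-SCC-090 but not in UM-SCC-47, MDM4 fell in both and 3 passed in neither, among them the untested EDA2R. A call in 1 line and not in the other is no test of a difference, and of these genes TP53I3 and PLK2 alone passed that test. Of all genes tested, 7.67% were called higher in UPCI-SCC-090 and 16.1% in UM-SCC-47.

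Many p53 target genes rose with JQ1, and 14 of them, led by CDKN1A, did so in both lines. In UPCI-SCC-090, 15 of the 31 genes tested were higher with JQ1 than with DMSO (48.4%), 1 was lower and 15 did not pass the test, against 7.67% of all 13150 genes tested called higher and 20.4% called lower. In UM-SCC-47, 25 of 32 were higher (78.1%), 1 was lower and 6 did not pass, against 16.1% of all 13440 genes called higher and 25.5% called lower. A gene was called at an adjusted p under 0.05 in edgeR's quasi-likelihood test with Benjamini-Hochberg adjustment over all genes tested. The median log2 fold change of the target genes was 1.43 in UPCI-SCC-090, where that of all genes was -0.14, and 1.42 in UM-SCC-47, where that of all genes was -0.03. In such bulk samples fewer cells that express a gene and less RNA per cell cannot be told apart.

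The same 14 genes were called higher in both lines: CDKN1A, BTG1, BTG2, GADD45A, SERTAD1, DDB2, TNFRSF10B, PHLDA3, SPATA18, TRIAP1, PERP, NINJ1, FDXR and ACER2. PLK2 was called higher in UPCI-SCC-090 but not in UM-SCC-47, and 11 genes in UM-SCC-47 but not in UPCI-SCC-090: MDM2, PPM1D, SESN1, ZMAT3, TP53I3, TP53INP1, RRM2B, XPC, PLK3, TIGAR and AEN. MDM4 was lower in both lines. POLH, CCNG1, GDF15 and GLS2 passed in neither line, and FAS did not pass in UM-SCC-47 and was too low to be tested in UPCI-SCC-090. Every JQ1 library lay above every DMSO library for 21 of the 31 genes in UPCI-SCC-090 and for 26 of the 32 in UM-SCC-47, against 16.1% and 22.8% of all genes tested.

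The spread between libraries was wider in UPCI-SCC-090, with a common biological coefficient of variation of 47% against 31.6% in UM-SCC-47. In UPCI-SCC-090, 28 of the 31 log2 fold changes were above 0 and 23 genes had an unadjusted p under 0.05. The count of 15 was 24 in a fit over all 12 libraries, where 13.3% of all genes were called higher, and it depended on single libraries. It was 6 without DMSO replicate 3 (3.26% of all genes called higher), where BTG1, DDB2, PHLDA3, PLK2, FDXR, SPATA18, TRIAP1, ACER2 and PERP lost the call (adjusted p between 0.051 and 0.09). It was 8 without JQ1 replicate 1 (2.76% of all genes), where BTG1, DDB2, PHLDA3, PLK2, FDXR, TRIAP1 and ACER2 lost it (0.054 to 0.11). It was 10 without DMSO replicate 2 (3.9% of all genes), where DDB2, PHLDA3, PLK2, TRIAP1 and ACER2 lost it (0.052 to 0.064). PHLDA3 also lost it without DMSO replicate 1 (0.058) and DDB2 without JQ1 replicate 2 (0.056). Other scalings of the libraries moved the median of all genes from -0.38 to 0.14 on the log2 scale in UPCI-SCC-090 and from -0.28 to 0.12 in UM-SCC-47. The median of the target genes stayed between 1.24 and 1.74 in UPCI-SCC-090 and between 1.16 and 1.57 in UM-SCC-47. Over these scalings the share of all calls that were higher lay between 17.1% and 42.3% in UPCI-SCC-090, where it was 27.4% as reported. In UM-SCC-47 it lay between 24.1% and 48%, where it was 38.7% as reported. With DESeq2, which is also another test, the share was 43.2% in UPCI-SCC-090 and 50.6% in UM-SCC-47.

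**Figure D1:**
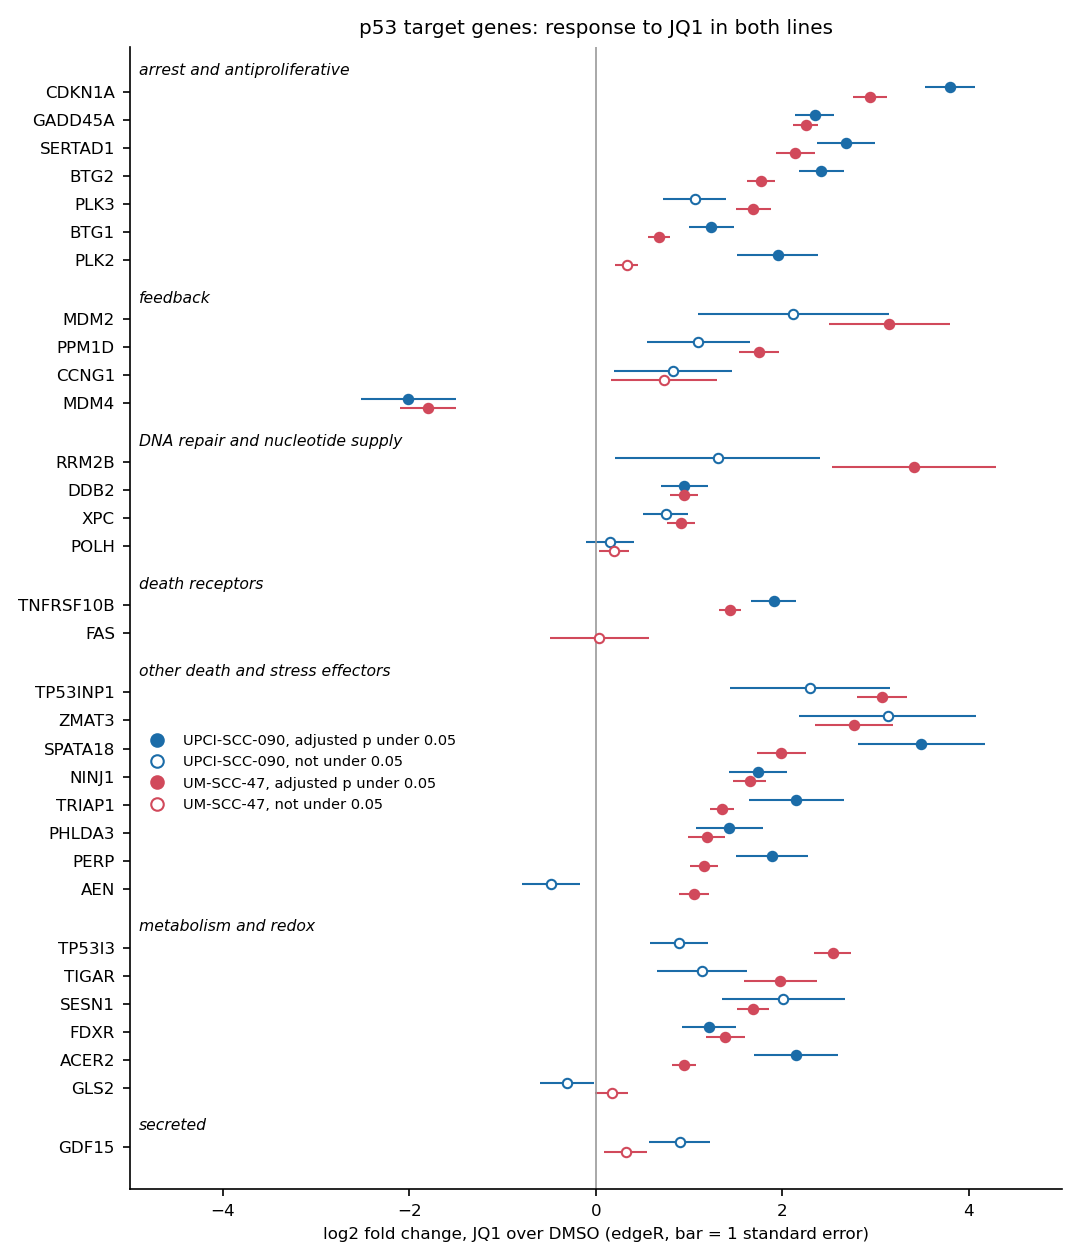
Response of 32 p53 target genes to JQ1, grouped by role. The horizontal axis is the log2 fold change of JQ1 over DMSO, each point is the estimate in 1 line (blue, UPCI-SCC-090; red, UM-SCC-47), bars are 1 standard error, and filled points passed an adjusted p of 0.05. All but MDM4 and, in UPCI-SCC-090, AEN and GLS2 lie to the right of 0, and the blue bars are longer for MDM2, ZMAT3, TP53INP1 and RRM2B than for CDKN1A or GADD45A.

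Most genes listed as arrest and antiproliferative genes rose in both lines. CDKN1A (chr6:36644237-36655114, GRCh37), which encodes p21, the inhibitor of cyclin-dependent kinases through which p53 stops the cell cycle, had 1970, 2770 and 1540 CPM in the 3 UPCI-SCC-090 libraries with JQ1, against 94.3, 169 and 152 CPM in those with DMSO. In UM-SCC-47 CDKN1A had 1030, 1230 and 812 CPM with JQ1, against 131, 138 and 129 CPM with DMSO. The groups were far apart in both lines, and CDKN1A had the largest called fold change of the target genes in UPCI-SCC-090, 13.9-fold (log2 3.80 ± 0.27 SE, adjusted p = 0.0032, edgeR). In UM-SCC-47 the fold change was 7.67-fold (log2 2.94 ± 0.18 SE, adjusted p = 0.00017). CPM values are scaled together over the 12 libraries, whereas each fold change comes from the fit of its own line, and these scalings differ by 0.11 on the log2 scale in UPCI-SCC-090 and by 0.01 in UM-SCC-47.

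BTG2 (chr1:203274619-203278730) encodes an antiproliferative protein that binds the deadenylase which shortens mRNA tails. It had 355, 499 and 283 CPM with JQ1 in UPCI-SCC-090, against 47.7, 73.7 and 73.1 CPM with DMSO, and 231, 284 and 200 CPM with JQ1 in UM-SCC-47, against 67.3, 68.9 and 70.8 CPM with DMSO. No JQ1 library came near a DMSO library of its line, and the rise was 5.36-fold in UPCI-SCC-090 (log2 2.42 ± 0.24 SE, adjusted p = 0.0037) and 3.42-fold in UM-SCC-47 (log2 1.77 ± 0.15 SE, adjusted p = 0.00043). BTG1, its close relative, rose less, by 1.24 ± 0.24 and 0.68 ± 0.12 on the log2 scale in UPCI-SCC-090 and UM-SCC-47, and its call was lost in both lines when counts were corrected for GC content (adjusted p = 0.1 and 0.21).

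GADD45A (chr1:68150884-68154017), a stress-induced gene of growth arrest and DNA damage, had 99.5, 116 and 87.4 CPM with JQ1 in UPCI-SCC-090, against 18.3, 17.4 and 19.2 CPM with DMSO. In UM-SCC-47 it had 168, 187 and 148 CPM with JQ1, against 35, 36.4 and 33.3 CPM with DMSO. The libraries of each group agreed closely, and the log2 fold changes of 2.35 ± 0.21 in UPCI-SCC-090 (adjusted p = 0.0037) and 2.25 ± 0.13 in UM-SCC-47 (adjusted p = 0.00015) were each from the fit of 1 line. In the fit over all 12 libraries, which tests the difference between the responses, it was 0.20 ± 0.25 (adjusted p = 0.75).

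SERTAD1 (chr19:40927496-40931899) encodes a protein that binds the kinase CDK4 and acts on E2F-driven transcription. It was placed in this group by the list, and these data do not show that it slows the cell cycle. It had 147, 214 and 108 CPM with JQ1 in UPCI-SCC-090, against 14.7, 27 and 25.3 CPM with DMSO, and 73.8, 91.4 and 55.1 CPM with JQ1 in UM-SCC-47, against 16.9, 17.6 and 15.1 CPM with DMSO. The groups did not overlap in either line, and SERTAD1 rose 6.42-fold (log2 2.68 ± 0.31 SE, adjusted p = 0.0038) and 4.39-fold (log2 2.14 ± 0.21 SE, adjusted p = 0.00066) in UPCI-SCC-090 and UM-SCC-47. PLK3, a stress-responsive polo-like kinase, was a low gene with means of 8.48 CPM with JQ1, against 3.68 CPM with DMSO in UPCI-SCC-090, and 16.8 CPM with JQ1, against 5.15 CPM with DMSO, in UM-SCC-47, where it rose by 1.69 ± 0.19 on the log2 scale (adjusted p = 0.001). In all, 6 of the 7 genes listed in this group, SERTAD1 among them, were called higher in each line. The exceptions were PLK3 in UPCI-SCC-090 (adjusted p = 0.061) and PLK2 in UM-SCC-47 (adjusted p = 0.078).

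**Figure D2:**
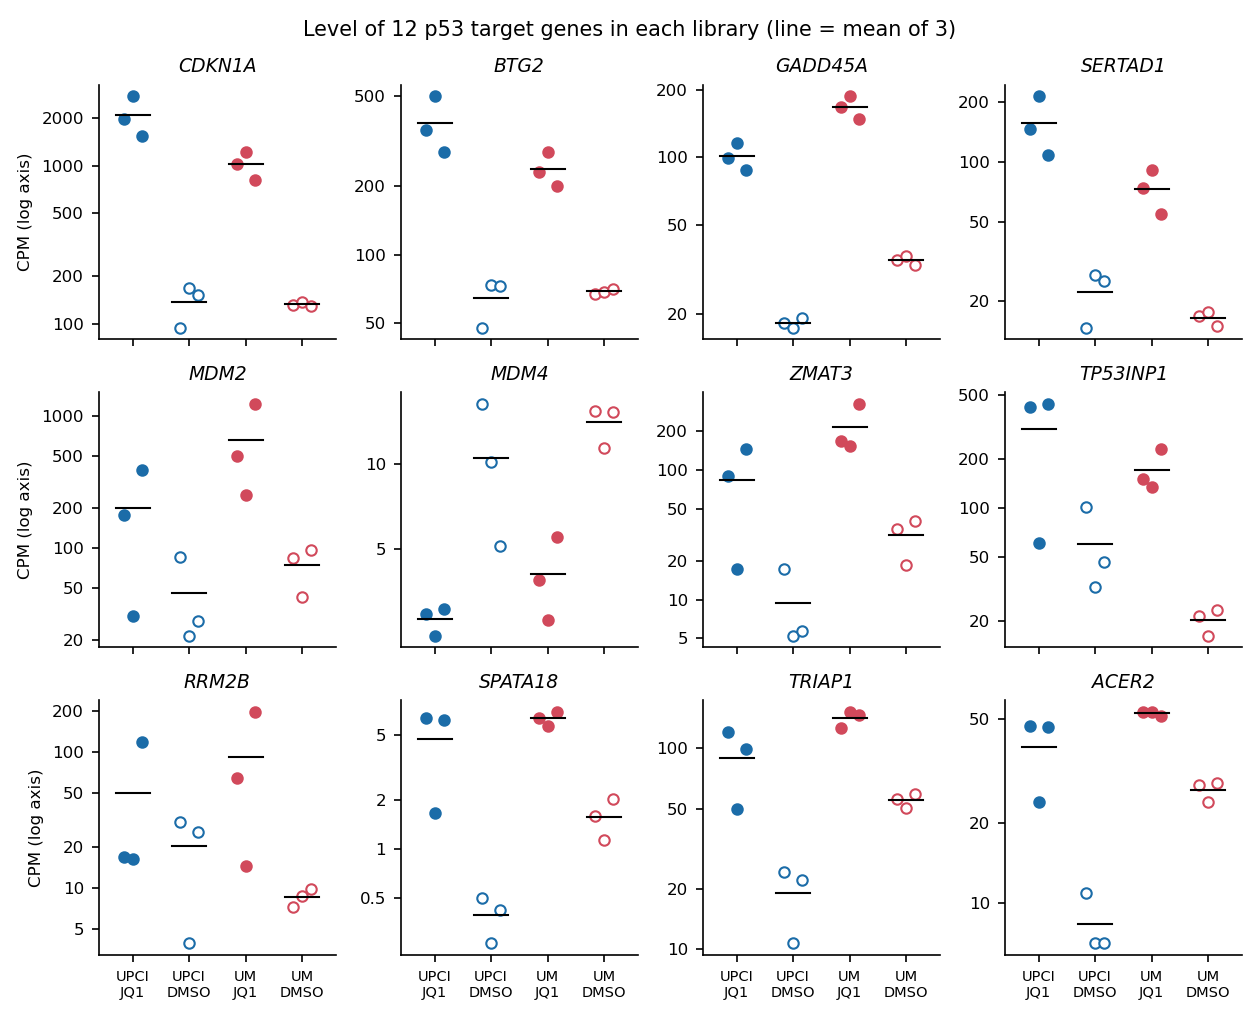
Level of 12 p53 target genes in each library, in CPM on log axes that differ between panels. Filled points are JQ1 libraries, open points DMSO libraries, blue is UPCI-SCC-090, red is UM-SCC-47, and black lines are means of 3 libraries. JQ1 and DMSO libraries are separate in both lines for CDKN1A, BTG2, GADD45A, SERTAD1, SPATA18, TRIAP1 and ACER2, MDM4 runs the other way, and 1 UPCI-SCC-090 JQ1 library is far below the other 2 for MDM2, ZMAT3 and TP53INP1.

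The feedback genes, whose products restrain p53, did not move together. MDM2 (chr12:69201957-69239324), the ubiquitin ligase that degrades p53 in uninfected cells, had 178, 30.5 and 392 CPM with JQ1 in UPCI-SCC-090, against 85.8, 21.6 and 28 CPM with DMSO. The groups overlapped there through JQ1 replicate 2, and the log2 fold change of 2.12 ± 1.02 did not pass the test (adjusted p = 0.18) but was 2.66 without that library (adjusted p = 0.033). In UM-SCC-47 MDM2 had 497, 254 and 1240 CPM with JQ1, against 83.6, 42.8 and 96.3 CPM with DMSO. The lowest JQ1 library lay above the highest DMSO library, and MDM2 rose 8.85-fold (log2 3.15 ± 0.65 SE, adjusted p = 0.0094), a log2 fold change that was 2.43 without JQ1 replicate 3 (adjusted p = 0.002). The responses of the 2 lines were not shown to differ (difference of -1.01 ± 1.16 on the log2 scale, adjusted p = 0.73).

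MDM4 (chr1:204485507-204527248) encodes a relative of MDM2 that blocks the activation domain of p53, and it was the only target gene that fell. It had 2.94, 2.47 and 3.07 CPM with JQ1 in UPCI-SCC-090, against 16.4, 10.2 and 5.14 CPM with DMSO, and 3.9, 2.81 and 5.51 CPM with JQ1 in UM-SCC-47, against 15.5, 11.4 and 15.4 CPM with DMSO. Every JQ1 library was below every DMSO library of its line. The log2 fold change was -2.01 ± 0.51 in UPCI-SCC-090 (adjusted p = 0.029) and -1.80 ± 0.30 in UM-SCC-47 (adjusted p = 0.004), but in UPCI-SCC-090 the call was lost when any library other than DMSO replicate 3 was left out, with log2 fold changes between -2.34 and -1.48 over all alternatives and an adjusted p of at most 0.12.

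PPM1D, the phosphatase WIP1 that removes activating phosphates from p53 and its kinases, averaged 44.6 ± 20.5 CPM with JQ1, against 19.9 ± 7.09 CPM with DMSO in UPCI-SCC-090 (SD, n = 3 each), where the groups overlapped (adjusted p = 0.19). In UM-SCC-47 it averaged 54.1 ± 12.9 CPM with JQ1, against 15.9 ± 1.31 CPM with DMSO and rose by 1.75 ± 0.21 on the log2 scale (adjusted p = 0.0013). CCNG1, which encodes cyclin G1, a partner of the phosphatase that acts on MDM2, overlapped between JQ1 and DMSO in both lines and passed in neither (log2 0.83 ± 0.63 in UPCI-SCC-090 and 0.73 ± 0.57 in UM-SCC-47).

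Of the 4 genes of DNA repair and nucleotide supply, 1 was called higher in UPCI-SCC-090 and 3 in UM-SCC-47. DDB2 (chr11:47236016-47260768), whose product finds ultraviolet damage in chromatin and whose start region holds the full consensus printed above, averaged 234 ± 63.4 CPM with JQ1, against 112 ± 30.7 CPM with DMSO, in UPCI-SCC-090, and 310 ± 49.1 CPM with JQ1, against 159 ± 13 CPM with DMSO, in UM-SCC-47 (SD, n = 3 each). It rose 1.93-fold in each line, with a log2 fold change of 0.95 ± 0.25 in UPCI-SCC-090 (adjusted p = 0.032) and 0.95 ± 0.15 in UM-SCC-47 (adjusted p = 0.0034). In UPCI-SCC-090 the call was lost with upper-quartile factors (0.058) and with library size only (0.079). XPC, the damage sensor of the same pathway, missed the threshold in UPCI-SCC-090, at 0.75 ± 0.24 (adjusted p = 0.064), and rose by 0.91 ± 0.15 in UM-SCC-47 (adjusted p = 0.0041). POLH, the polymerase that copies past ultraviolet lesions, showed log2 fold changes of 0.15 ± 0.26 in UPCI-SCC-090 and 0.20 ± 0.16 in UM-SCC-47 and passed in neither.

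RRM2B encodes the p53-inducible small subunit of ribonucleotide reductase, which supplies nucleotides for repair. In UPCI-SCC-090 it had 17.1, 16.3 and 118 CPM with JQ1, against 30.9, 3.94 and 26 CPM with DMSO, and in UM-SCC-47 it had 64.6, 14.7 and 198 CPM with JQ1, against 7.24, 8.76 and 9.95 CPM with DMSO. The groups overlapped in UPCI-SCC-090, and in UM-SCC-47 the JQ1 libraries were far apart but all above the DMSO libraries. In UPCI-SCC-090 the log2 fold change of 1.31 ± 1.1 did not pass (adjusted p = 0.44) and became -0.35 without JQ1 replicate 3. RRM2B had the largest fold change of the target genes in UM-SCC-47 (10.6-fold, log2 3.41 ± 0.88 SE, adjusted p = 0.022), but the call was lost when any 1 of the 3 DMSO libraries was left out (adjusted p of up to 0.084), and the log2 fold change was 2.28 without JQ1 replicate 3.

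The death receptors differed from each other. TNFRSF10B, the death receptor DR5 that binds the ligand TRAIL, averaged 138 ± 42.4 CPM with JQ1, against 33.6 ± 6.15 CPM with DMSO, in UPCI-SCC-090, and 174 ± 13.3 CPM with JQ1, against 63.6 ± 3.91 CPM with DMSO, in UM-SCC-47 (SD, n = 3 each). It rose in both lines, 3.76-fold in UPCI-SCC-090 (log2 1.91 ± 0.24 SE, adjusted p = 0.0042) and 2.72-fold in UM-SCC-47 (log2 1.44 ± 0.12 SE, adjusted p = 0.00034), and the groups did not overlap. FAS (chr10:90750414-90775542), the receptor of the Fas ligand, had 6.91, 3.54 and 15.5 CPM with JQ1 in UM-SCC-47, against 6.25, 10.6 and 8.2 CPM with DMSO, and its log2 fold change, 0.04 ± 0.53, was far from the threshold (adjusted p = 0.96). EDA2R had 0 counts over the 3 JQ1 libraries of each line, which allows up to 3 counts, and 2 counts over the 3 DMSO libraries of each line.

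Of the 8 other genes of cell death and stress, 5 were called higher in UPCI-SCC-090 and all 8 in UM-SCC-47. ZMAT3 (chr3:178677909-178790003), an RNA-binding zinc finger protein that acts on splicing and mRNA stability, had 90.4, 17.2 and 147 CPM with JQ1 in UPCI-SCC-090, against 17.3, 5.25 and 5.68 CPM with DMSO. The groups overlapped narrowly there, and the log2 fold change of 3.13 ± 0.95 narrowly missed the threshold (adjusted p = 0.051) and passed under 10 of 16 alternatives. In UM-SCC-47 ZMAT3 had 169, 154 and 327 CPM with JQ1, against 34.9, 18.6 and 40.5 CPM with DMSO, and rose by 2.77 ± 0.42 on the log2 scale (adjusted p = 0.003). TP53INP1, a cofactor of p53 with a role in autophagy, had 421, 60.3 and 440 CPM with JQ1 in UPCI-SCC-090, against 101, 32.2 and 46.3 CPM with DMSO, and 150, 134 and 230 CPM with JQ1 in UM-SCC-47, against 21.3, 16.2 and 23.3 CPM with DMSO. JQ1 replicate 2 was again the low library of UPCI-SCC-090, where the log2 fold change was 2.30 ± 0.86 (adjusted p = 0.094), and TP53INP1 rose by 3.07 ± 0.27 in UM-SCC-47 (adjusted p = 0.00044).

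SPATA18 (chr4:52917470-52963465), which takes part in the removal of damaged mitochondrial proteins, was a low gene with a large relative rise. It had 6.33, 1.65 and 6.14 CPM with JQ1 in UPCI-SCC-090, against 0.499, 0.263 and 0.42 CPM with DMSO, and 6.35, 5.68 and 6.93 CPM with JQ1 in UM-SCC-47, against 1.59, 1.13 and 2.01 CPM with DMSO. All JQ1 libraries but UPCI-SCC-090 replicate 2 lay between 5.68 and 6.93 CPM, and the rise was 11.3-fold in UPCI-SCC-090 (log2 3.49 ± 0.68 SE, adjusted p = 0.012) and 3.97-fold in UM-SCC-47 (log2 1.99 ± 0.26 SE, adjusted p = 0.0017). The difference between the responses, 1.55 ± 0.66 on the log2 scale, did not pass (adjusted p = 0.21).

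TRIAP1 (chr12:120881767-120884187), a small mitochondrial protein that protects cells from apoptosis, had 120, 50.1 and 98.9 CPM with JQ1 in UPCI-SCC-090, against 24.3, 10.7 and 22 CPM with DMSO, and 126, 152 and 146 CPM with JQ1 in UM-SCC-47, against 55.7, 50.5 and 59 CPM with DMSO. It rose by 2.15 ± 0.51 (adjusted p = 0.023) and 1.35 ± 0.13 (adjusted p = 0.00061) on the log2 scale in UPCI-SCC-090 and UM-SCC-47, with no overlap of the groups. PERP, a membrane protein of desmosomes, averaged 4370 ± 1300 CPM with JQ1, against 1110 ± 301 CPM with DMSO, in UPCI-SCC-090, and 1280 ± 171 CPM with JQ1, against 566 ± 48.6 CPM with DMSO, in UM-SCC-47, and rose by 1.89 ± 0.39 (adjusted p = 0.014) and 1.16 ± 0.15 (adjusted p = 0.0015) on the log2 scale. NINJ1, whose product ruptures the plasma membrane of dying cells, rose by 1.74 ± 0.31 (adjusted p = 0.0091) and 1.65 ± 0.18 (adjusted p = 0.00087) and PHLDA3, an inhibitor of the kinase AKT, by 1.43 ± 0.36 (adjusted p = 0.028) and 1.19 ± 0.20 (adjusted p = 0.0047) in UPCI-SCC-090 and UM-SCC-47. AEN, a nuclease of apoptotic cells, had a log2 fold change of -0.48 ± 0.31 in UPCI-SCC-090 (adjusted p = 0.3) and rose by 1.05 ± 0.16 in UM-SCC-47 (adjusted p = 0.0035), a difference between the responses of -1.41 ± 0.42 that missed the threshold (adjusted p = 0.072).

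Of the 6 genes of metabolism and redox balance, 2 were called higher in UPCI-SCC-090 and 5 in UM-SCC-47. ACER2 (chr9:19409007-19452503), a ceramidase of the Golgi, had 46.9, 24.1 and 46.6 CPM with JQ1 in UPCI-SCC-090, against 10.9, 7 and 7.04 CPM with DMSO, and 52.9, 53.2 and 51.4 CPM with JQ1 in UM-SCC-47, against 28.1, 24.1 and 28.5 CPM with DMSO. It rose by 2.15 ± 0.45 (adjusted p = 0.015) and 0.95 ± 0.13 (adjusted p = 0.002) on the log2 scale. FDXR, the mitochondrial ferredoxin reductase, rose by 1.21 ± 0.29 (adjusted p = 0.025) and 1.39 ± 0.21 (adjusted p = 0.0028) in UPCI-SCC-090 and UM-SCC-47. SESN1, a sestrin that restrains the growth kinase mTORC1, had a log2 fold change of 2.01 ± 0.66 in UPCI-SCC-090 (adjusted p = 0.065) and rose by 1.69 ± 0.17 in UM-SCC-47 (adjusted p = 0.00069). TIGAR, which lowers glycolysis, had one of 1.14 ± 0.48 in UPCI-SCC-090 (adjusted p = 0.13) and rose by 1.98 ± 0.39 in UM-SCC-47 (adjusted p = 0.0082). GLS2, a mitochondrial glutaminase, passed in neither line, at -0.31 ± 0.29 in UPCI-SCC-090 and 0.17 ± 0.18 in UM-SCC-47.

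The difference between the 2 responses was tested gene by gene in 1 fit over the 12 libraries. Of the 32 target genes tested, 2 passed. The response of PLK2 was larger in UPCI-SCC-090 and that of TP53I3 was smaller there, each 3.12% of the target genes tested. Over all 14396 genes 6.56% passed in either direction, so such calls were about as frequent among the target genes as among all genes. PLK2 (chr5:57749809-57755966), a polo-like kinase induced by stress, had 98.8, 56.2 and 101 CPM with JQ1 in UPCI-SCC-090, against 28.4, 16 and 18.3 CPM with DMSO. In UM-SCC-47 it had 285, 272 and 304 CPM with JQ1, against 237, 198 and 244 CPM with DMSO. PLK2 rose 3.85-fold in UPCI-SCC-090 (log2 1.95 ± 0.43 SE, adjusted p = 0.017) and showed a log2 fold change of 0.33 ± 0.12 in UM-SCC-47 (adjusted p = 0.078), a difference of 1.69 ± 0.38 (adjusted p = 0.022). Even with JQ1, the highest UPCI-SCC-090 library was below the lowest UM-SCC-47 library.

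TP53I3 (chr2:24300303-24308731), a quinone oxidoreductase that takes part in the production of reactive oxygen species, had 46.2, 59 and 36.6 CPM with JQ1 in UPCI-SCC-090, against 15, 31 and 24.9 CPM with DMSO. In UM-SCC-47 it had 199, 274 and 170 CPM with JQ1, against 35.4, 39.2 and 34.9 CPM with DMSO. It showed a log2 fold change of 0.89 ± 0.31 in UPCI-SCC-090 (adjusted p = 0.08) and rose 5.82-fold in UM-SCC-47 (log2 2.54 ± 0.20 SE, adjusted p = 0.00033), a difference of -1.55 ± 0.41 (adjusted p = 0.045). Both differences kept their sign in all 21 alternatives, between 1.46 and 1.94 for PLK2 and between -1.90 and -1.26 for TP53I3, but the call was lost under 8 of them for PLK2 and under 13 for TP53I3. The number of target genes that passed lay between 0 and 6 when 1 library was left out: it was 0 without DMSO replicate 2 or JQ1 replicate 1 of UPCI-SCC-090 and without DMSO replicate 1, DMSO replicate 3 or JQ1 replicate 1 of UM-SCC-47, 1 without DMSO replicate 3 or JQ1 replicate 3 of UPCI-SCC-090 and without DMSO replicate 2 or JQ1 replicate 2 of UM-SCC-47, and 6 without JQ1 replicate 2 of UPCI-SCC-090.

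With DMSO alone, UPCI-SCC-090 differed from UM-SCC-47 in 13 of the 32 target genes tested, but such differences were common over all genes. In UPCI-SCC-090, 4 target genes were higher (XPC, FDXR, PERP and GLS2), 12.5% of those tested, against 3348 of all 14396 genes (23.3%). Another 9 were lower (GADD45A, TNFRSF10B, FAS, PHLDA3, PLK2, SPATA18, TRIAP1, ACER2 and GDF15), 28.1% of those tested, against 2869 of all genes (19.9%). CDKN1A did not pass, at 138 ± 39.1 CPM in UPCI-SCC-090 and 132 ± 4.75 CPM in UM-SCC-47 (SD, n = 3 each), with a log2 difference of 0.06 ± 0.27 (adjusted p = 0.88). Of the count of 4, 1 was left without UPCI-SCC-090 DMSO replicate 3, and 2 were left without UPCI-SCC-090 DMSO replicate 1 or without any 1 of the UM-SCC-47 DMSO libraries. XPC and FDXR lost the call under 10 and 9 alternatives (adjusted p of up to 0.24 and 0.27), PERP without UPCI-SCC-090 DMSO replicate 1 (0.18) or 3 (0.14) and with the GC correction (0.07), and PHLDA3 without UM-SCC-47 DMSO replicate 2 (0.057).

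GDF15 (chr19:18485541-18499986), a secreted stress cytokine, had 0.399, 0.744 and 0.614 CPM with DMSO in UPCI-SCC-090, against 25.6, 31.7 and 25.9 CPM with DMSO in UM-SCC-47, a log2 difference of -5.56 ± 0.38 (adjusted p = 5.3e-07). GLS2 (chr12:56864728-56882198) ran the other way, with 23.8, 42.4 and 34.4 CPM in UPCI-SCC-090, against 6.06, 6.51 and 5.28 CPM in UM-SCC-47, a log2 difference of 2.49 ± 0.30 (adjusted p = 3.5e-05). PLK2 was lower in UPCI-SCC-090 by a log2 difference of -3.44 ± 0.29 (adjusted p = 2.5e-06). FAS was all but missing from UPCI-SCC-090, with 2 counts over its 3 DMSO libraries, against 667 counts over those of UM-SCC-47, which put its level in UM-SCC-47 at 346 times that in UPCI-SCC-090 (95% interval of counting error only, 95.4 to 2860). With JQ1 the counts were 7 in UPCI-SCC-090 and 556 in UM-SCC-47, a ratio of 91.4 (44.1 to 229). With JQ1 too, GDF15, GLS2 and FAS had levels that did not overlap between the lines.

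**Figure D3:**
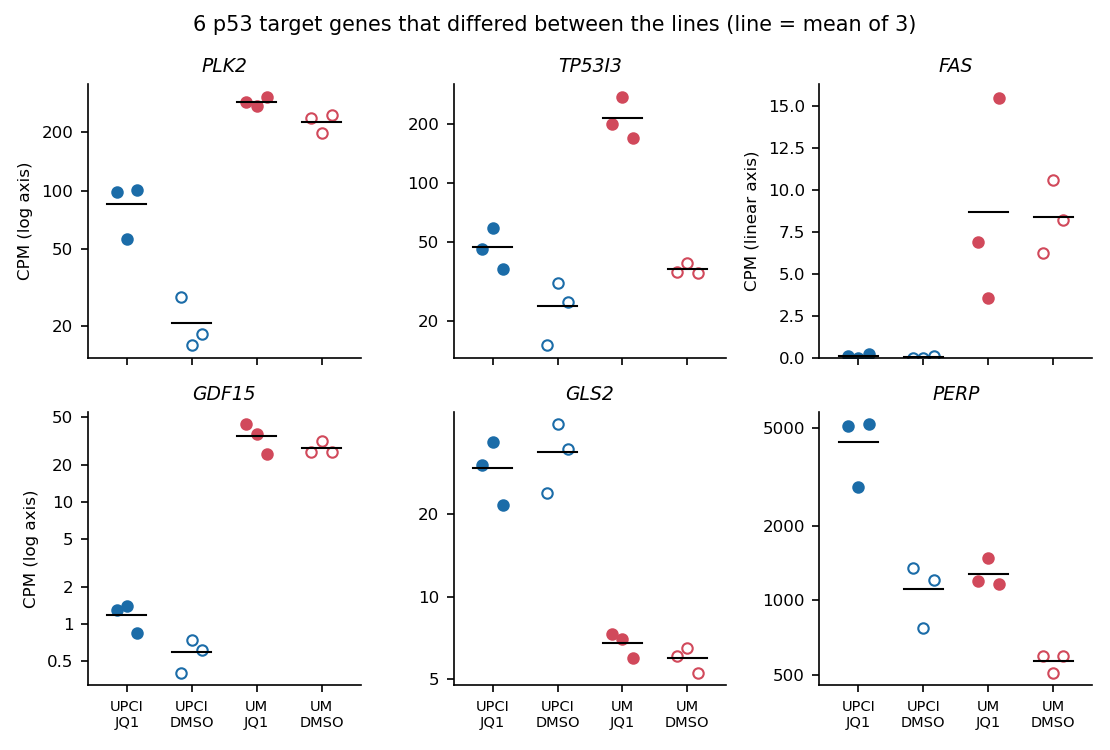
Level of 6 p53 target genes that differed between the lines in their response to JQ1 (PLK2, TP53I3) or with DMSO (PLK2, FAS, GDF15, GLS2, PERP). Points are libraries (filled, JQ1; open, DMSO; blue, UPCI-SCC-090; red, UM-SCC-47), black lines are means of 3, and axes are in CPM, logarithmic except for FAS. All UPCI-SCC-090 libraries lie under those of UM-SCC-47 for PLK2, FAS and GDF15 and above them for GLS2, with or without JQ1.

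Between genes, levels can be compared only per length, here CPM per kilobase of the canonical transcript. With JQ1 in UPCI-SCC-090, PERP (1040 CPM per kilobase) and CDKN1A (987) stood far above the next gene, BTG2 (139). With DMSO in that line PERP had 264, CDKN1A 65.2 and DDB2 61.7, with BTG2 at 23.7, below NINJ1 (26.4) and FDXR (26.1). With JQ1 in UM-SCC-47, CDKN1A (487) and PERP (305) led again, followed by DDB2 (171), and with DMSO PERP had 135, DDB2 87.6 and PLK2 81.5, with CDKN1A at 62.4. MDM2 reached 26.7 with JQ1 in UPCI-SCC-090, against 6.02 with DMSO, and 88.4 with JQ1 in UM-SCC-47, against 9.91 with DMSO, whereas MDM4 was at 0.282 and 0.405 with JQ1 in UPCI-SCC-090 and UM-SCC-47, against 1.05 and 1.4 with DMSO.

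The spread of single genes moved with the base composition of their transcripts. For each library the deviation of a gene was its log2 CPM minus the mean of the other libraries of its group. The deviations of a gene cancel out within a group, so opposite signs of r among the libraries of a group are built in. In UPCI-SCC-090 with JQ1, the deviation of replicate 2 correlated with GC content over 31 target genes (Pearson r = 0.70). That of replicate 3 correlated in the opposite direction (r = -0.70), with a weaker value in replicate 1 (r = -0.26). In UM-SCC-47 with JQ1 the values over 32 genes were 0.53, 0.56 and -0.65 in replicates 1, 2 and 3. With DMSO they were -0.80, 0.73 and 0.16 in UPCI-SCC-090 and -0.08, 0.41 and -0.58 in UM-SCC-47. These are correlations across genes of 1 library, and genes are not independent replicates. Among genes under 45% GC, such as MDM2 (40.4%), TP53INP1 (39.3%) and RRM2B (41.3%), 4 of 10 were called higher in UPCI-SCC-090, with a median standard error of 0.57, and above 45% GC, as in CDKN1A (59.4%) and GADD45A (57%), it was 11 of 21 with a median standard error of 0.31. In UM-SCC-47 it was 7 of 11 under 45% and 18 of 21 above.

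When each library's trend with GC content was removed before the test, the count of genes called higher became 24 in UPCI-SCC-090 and 25 in UM-SCC-47. The share of all genes tested that were called higher moved with it, to 25.4% in UPCI-SCC-090 and 26.2% in UM-SCC-47. In UPCI-SCC-090, 14 of the 15 genes were kept, BTG1 was lost, and MDM2, SESN1, ZMAT3, TP53I3, TP53INP1, XPC, PLK3, TIGAR, PPM1D and GDF15 were gained. In UM-SCC-47, 23 of the 25 were kept, BTG1 and PERP were lost, and GDF15 and GLS2 were gained. Leaving out the 3 libraries with the steepest GC trends (UPCI-SCC-090 JQ1 replicate 3, UPCI-SCC-090 DMSO replicate 2 and UM-SCC-47 JQ1 replicate 3) gave 18 genes called higher in UPCI-SCC-090 and 26 in UM-SCC-47. Of all genes, 6.57% and 22.2% were then called higher in UPCI-SCC-090 and UM-SCC-47, against 7.67% and 16.1% with all libraries. For MDM2 in UPCI-SCC-090 the log2 fold change was 1.81 with the GC correction (adjusted p = 0.024) and 0.97 without the steep libraries (adjusted p = 0.34).

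**Figure D4:**
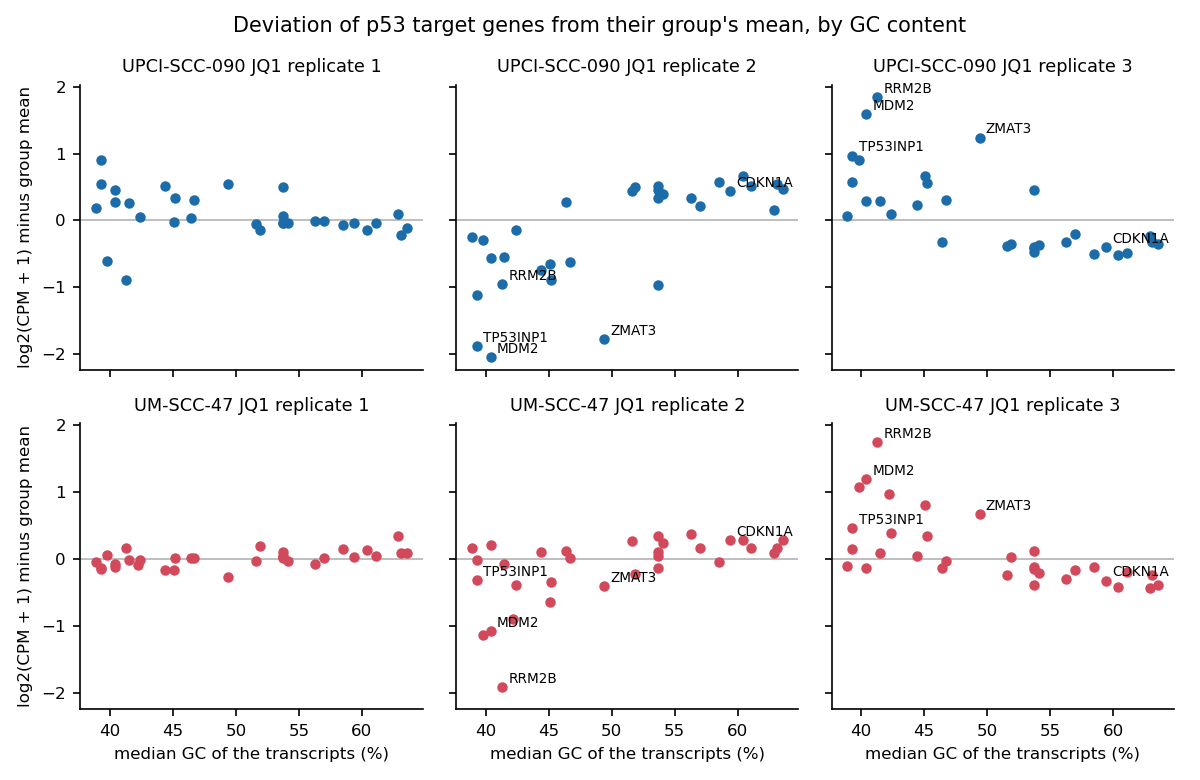
Deviation of each p53 target gene in the 3 JQ1 libraries of each line from the mean of its group, in log2(CPM + 1), against the median GC content of the gene's transcripts in percent. Each point is a gene (top row, UPCI-SCC-090, 31 genes; bottom row, UM-SCC-47, 32 genes). In replicate 2 of both lines the points tend to rise with GC content (r = 0.70 and 0.56), and in replicate 3 they tend to fall (r = -0.70 and -0.65). These r values were computed on log2 CPM without the added 1, against the mean of the other libraries of the group. Deviations cancel out within a group, so opposite signs within a group are built in.

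Other known p53 targets were called higher more often than lower. Of 25 further targets, 8 of 22 tested were higher and 2 lower in UPCI-SCC-090 (median log2 fold change 0.93), and 8 of 23 were higher and 2 lower in UM-SCC-47 (median 0.27). The higher calls were 36.4% and 34.8% of the list in UPCI-SCC-090 and UM-SCC-47, against 7.67% and 16.1% of all genes, and the lower calls 9.09% and 8.7%, against 20.4% and 25.5%. The largest rises in UPCI-SCC-090 were RPS27L (2.66 ± 0.32, adjusted p = 0.004), a relative of a ribosomal protein whose near copies may share its reads, the decoy receptor TNFRSF10D (2.39 ± 0.26, adjusted p = 0.0037) and BBC3 (1.87 ± 0.36, adjusted p = 0.011), which encodes the death inducer PUMA. In UM-SCC-47 they were BBC3 (2.70 ± 0.24, adjusted p = 0.00047), RPS27L (2.51 ± 0.12, adjusted p = 0.00013) and the sestrin SESN2 (1.37 ± 0.17, adjusted p = 0.0016). PML, the organizer of nuclear bodies, fell in both lines, by a log2 fold change of -2.04 ± 0.38 (adjusted p = 0.0099) in UPCI-SCC-090 and -1.06 ± 0.12 (adjusted p = 0.0012) in UM-SCC-47. Leaving out 1 library changed these counts in UPCI-SCC-090, where 4 were higher and none lower without JQ1 replicate 1 and 5 were higher and 1 lower without DMSO replicate 3, and 1 was lower without DMSO replicate 2 or JQ1 replicate 3. In UM-SCC-47, 4 were lower without JQ1 replicate 3 and 1 without any other library but JQ1 replicate 1.

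Of 25 relatives and regulators of p53, 2 were higher and 6 lower in UPCI-SCC-090 (median -0.82), and 2 were higher and 12 lower in UM-SCC-47 (median -0.59). In UPCI-SCC-090 these shares, 8% and 24%, were near those of all genes, 7.67% and 20.4%, and in UM-SCC-47 they were 8% and 48%, against 16.1% and 25.5% of all genes. CREBBP, an acetyltransferase that acts on p53, fell by a log2 fold change of -4.08 ± 0.39 (adjusted p = 0.0037) in UPCI-SCC-090 and -2.44 ± 0.28 (adjusted p = 0.0011) in UM-SCC-47, and its relative EP300 fell by -3.01 ± 0.39 (adjusted p = 0.0043) and -1.66 ± 0.25 (adjusted p = 0.003). RPL11 and RPL5, ribosomal proteins that bind MDM2 and whose many near copies may share their reads, rose in UPCI-SCC-090 by 2.07 ± 0.17 (adjusted p = 0.0037) and 1.78 ± 0.40 (adjusted p = 0.018). In UM-SCC-47 RPL5 rose by 0.74 ± 0.13 (adjusted p = 0.0046) and RPL11 did not pass (0.58 ± 0.22, adjusted p = 0.081). Over the whole list the log2 fold changes in UM-SCC-47 ran from -3.02 to 1.34, so the genes named here were not the largest changes in that line. In UPCI-SCC-090, 3 were lower without JQ1 replicate 1 and 1 was higher without DMSO replicate 3.

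Downstream of p21, p53 lowers cell cycle genes through the DREAM repressor complex. Of 20 such genes, 16 were lower and none higher in UPCI-SCC-090 (median log2 fold change -2.63), and 18 were lower and none higher in UM-SCC-47 (median -3.10). The lower calls were 80% and 90% of the list in UPCI-SCC-090 and UM-SCC-47, against 20.4% and 25.5% of all genes. FOXM1, a transcription factor of the G2 and M phases, fell most in both, by a log2 fold change of -4.60 ± 0.48 (adjusted p = 0.0037) in UPCI-SCC-090 and -5.15 ± 0.14 (adjusted p = 5.1e-05) in UM-SCC-47. The mitotic kinase PLK1 fell by -3.84 ± 0.35 (adjusted p = 0.0037) and -4.64 ± 0.15 (adjusted p = 7.1e-05).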

How the data were processed

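Total RNA was sequenced on stranded libraries with ribosomal RNA depleted, each run on 2 lanes. The deposited table holds estimated counts per gene made by the authors with Salmon (0.8.2 in the submitters' processing notes), summed to Ensembl genes; for the index, the build and annotation were not given in the sources used here. Notes by the submitters also name DESeq2 1.28.0. Between 52.8% and 61.5% of values per library were not whole, so values were rounded to integers before testing.

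Genes were matched by Ensembl ID to GENCODE 44 lifted to GRCh37, where 20015 of 20738 IDs were found, and gene coordinates are from there. Genes were filtered with filterByExpr (minimum count 10, minimum total 15), scaled by TMM and tested with edgeR 4.0.16 in R 4.3.3, treatment within each line and, for the difference between the responses and between the DMSO groups, a group model over all 12 libraries. p-values were adjusted by the Benjamini-Hochberg method over all genes tested and called under 0.05. Alternatives were other scalings, no filter, DESeq2 1.42.0, a joint fit, a replicate block, a GC correction, libraries left out and a log2 fold change over 1. The scripts were tested on simulated data. No 2 libraries of a group held the same values.

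The target genes, the other lists and the alternatives were chosen with earlier results of these data known. Genes described in every library were CDKN1A, MDM2, up to 6 of the largest rises and falls called per line and those whose responses differed. Outside this rule, single libraries were also given for FAS, GDF15 and GLS2, which differed between the lines with DMSO. Of the other lists up to 3 called genes per direction and line were eligible for naming. The transcript of p53 itself is counted among the regulators and is not reported here.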

Additional observations from a re-analysis of the deposited data

Results flagged for a closer look

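The response of TP53I3 to JQ1 was the smaller in UPCI-SCC-090, with a difference from UM-SCC-47 of -1.55 ± 0.41 on the log2 scale (edgeR interaction term, adjusted p = 0.045). The response of PLK2 was larger in UPCI-SCC-090, with a difference of 1.69 ± 0.38 (adjusted p = 0.022). In both cases the difference itself was tested between the lines, and TP53I3 lost the call under 13 and PLK2 under 8 of 21 alternatives. Of all 14396 genes 6.56% passed this test, a share near that of the target genes, so these calls do not set the target genes apart.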

How the results depend on the processing

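In UM-SCC-47, 23 of the 26 called target genes were called under every alternative and all 26 kept their sign. The count of higher genes lay between 24 and 26 with any 1 library left out, where 8.87% to 22.2% of all genes were called higher. In UPCI-SCC-090, 6 of 16 (CDKN1A, BTG2, GADD45A, TNFRSF10B, SERTAD1 and NINJ1) were called under every alternative and all 16 kept their sign. There the count of 15 higher genes (7.67% of all genes called higher) was 23 with DESeq2 (10.1%) and 24 in the joint fit (13.3%). It was 24 with the GC correction and 25 with the GC correction and the replicate block (25.4% of all genes in each). With 1 library left out it lay between 6 (3.26%) and 20 (9.6%), while the count of 1 lower gene was between 0 and 1. The count of 2 genes whose responses differed was 1 with RLE factors, upper-quartile factors, no filter, DESeq2 or the steep libraries left out. It was 8 with the GC correction, 9 with it and the block, and between 0 and 6 with 1 library left out. Calls over all genes moved too. As reported, 422 of all 14396 genes passed with a positive and 523 with a negative difference. These were 1234 and 1339 with the GC correction, and 1058 and 1168 with it and the block. Without JQ1 replicate 2 of UPCI-SCC-090, which gave the 6, they were 652 and 1123 of 14658 genes. The 4 genes higher in UPCI-SCC-090 with DMSO (23.3% of all genes called higher) became 2 with RLE or upper-quartile factors (18.9% and 19.1%). They became 8 with the GC correction and the block (32.3%) and 1 with a log2 fold change over 1 (18.7%). With 1 library left out they were between 1 and 3, where 16.3% to 20.6% of all genes were called higher. The cause of these changes was not tested.

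Genes that were not called changed sign. FAS in UM-SCC-47 had log2 fold changes of -0.04 with upper-quartile factors, -0.19 with library size only, -0.15 with the block, -0.19 with the GC correction, -0.16 with it and the block, -0.57 without the steep library and -0.57 to 0.42 with 1 library left out. With library size only, POLH was at -0.06 in both lines and GLS2 at -0.08 in UM-SCC-47. In UPCI-SCC-090, AEN was at 0.28 with the GC correction, with or without the block, and at 0.05 without the steep libraries; GLS2 was at 0.06, 0.06 and 0.25 under the same settings; CCNG1 was at -0.03 and RRM2B at -0.72 without the steep libraries, and RRM2B lay between -0.35 and 1.80 with 1 library left out.

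The labels do not say whether same-numbered JQ1 and DMSO libraries were paired. Their deviations correlated at 0.10, 0.82 and 0.24 in UPCI-SCC-090 and -0.22, 0.22 and 0.51 in UM-SCC-47, and not every library correlated best with its own number. These deviations also hold each library's trend with GC content, so they cannot decide whether the samples were paired. With the replicate block the counts of higher genes were 21 in UPCI-SCC-090 (10.3% of all genes called higher) and 25 in UM-SCC-47 (16.1%), and 3 genes differed in response. Estimated counts and 3 libraries a group limit what could be called: the filter left FAS untested in UPCI-SCC-090 and EDA2R in both lines.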
